A study of Mus musculus with 48 samples.

Results

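The 36 genes described here make, sense, modify and export cholesterol and fatty acids. They were taken by name from the 55357 rows of a mouse gene count table. The rule uses no measured value, but the list was chosen with earlier results of these data known. The list held 18 enzymes of sterol synthesis, 4 genes of sterol sensing and transfer, 8 enzymes of fatty acid synthesis and desaturation, and 6 genes of cholesterol export, oxysterol formation and liver X receptors. All 36 passed the filter on low counts, which 21390 genes passed in total.

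RNA was sequenced from the microdissected dorsal dentate gyrus of wild-type C57BL/6J mice after injection of kainate, a glutamate receptor agonist that starts status epilepticus, or of saline into the hippocampus of 1 side. The dentate gyrus on the injected side represented the epileptogenic zone (EZ), and the one on the opposite side the peri-ictal zone (PIZ). Both sides of 24 mice gave 48 libraries in 12 groups of 4, set by region (EZ or PIZ), injection (kainate or saline) and day (3, 7 or 14), with 2 males and 2 females in each. The labels give the age as 6 to 8 weeks, while the methods of the study give an older range. The kainate groups held only mice in which a convulsive seizure was observed, and the control groups also carried the injection itself. Libraries held 17762656 to 25712975 counts, and each of the 7 granule cell markers examined had counts in all 48. A differentially expressed gene (DEG), also termed called, had an adjusted p below 0.01 and more than a 1.5-fold difference, by edgeR's quasi-likelihood test with Benjamini-Hochberg adjustment over the 21390 genes. The words rose and fell are also used of an adjusted p below 0.01 at a smaller fold. All adjusted p values below come from that test, and a log2 fold change is kainate against saline with its standard error (n = 4 mice against 4). Levels by library are CPM, counts scaled to a common library size after TMM.

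The brain makes nearly all of its own cholesterol. When sterols are scarce, SREBP factors move to the nucleus and raise the genes of sterol and fatty acid synthesis, with Insig proteins holding them back when sterols are plentiful. When sterols are in excess, oxysterols bind the liver X receptors, which raise cholesterol exporters such as Abca1 and also Srebf1. Astrocytes supply much of the lipid that neurons use, neurons export surplus cholesterol as an oxysterol made by Cyp46a1, and microglia handle the lipid of debris. In bulk tissue, fewer cells of a type and less RNA per cell cannot be told apart.

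Marker genes of other cell types moved strongly with kainate, and their part in the results below was not tested. At day 3 in the EZ, 9 of 10 microglial markers were upregulated DEG, with a summed level of 2198 to 3983 CPM after kainate and 684 to 1225 CPM after saline. At day 7, 10 of 10 were upregulated, with sums of 2587 to 10338 CPM against 584 to 663 CPM. At day 14 in the EZ, 8 of 10 were upregulated, with sums of 659 to 4880 CPM against 521 to 561 CPM. All 10 were also upregulated in the PIZ at day 3, with sums of 1441 to 1796 CPM against 380 to 530 CPM. In that comparison 4 of 9 astrocyte markers were upregulated (sums of 9185 to 10294 CPM against 4923 to 6468 CPM) and 2 of 6 of oligodendrocyte precursors (428 to 575 CPM against 251 to 275 CPM). There 0 of 8 general neuronal markers were called (7709 to 8685 CPM against 10495 to 11876 CPM). However, 2 of 7 granule cell markers were downregulated (496 to 664 CPM against 469 to 979 CPM). So was 1 of 6 markers of CA3 and CA1 pyramidal cells (230 to 347 CPM against 410 to 571 CPM), and 3 of 6 monocyte and macrophage markers tested were upregulated. Of 6 monocyte and macrophage markers tested, 5 were upregulated in the EZ at day 3 and 5 at day 7. Of 9 astrocyte markers, 4 were upregulated and 2 downregulated in the EZ at day 3 and 6 upregulated at day 7, when their sum lay at 11812 to 13381 CPM against 5497 to 6152 CPM. Of 12 oligodendrocyte markers, 5 were upregulated at day 7, with sums of 3684 to 10807 CPM against 2685 to 5532 CPM. Of 6 markers of oligodendrocyte precursors, 4 were upregulated in the EZ at day 3 and 6 at day 7, when their sum lay at 374 to 1042 CPM against 245 to 328 CPM. Of 8 neuronal markers, 3 were downregulated in the EZ at day 3 and 5 at day 7, when their sum lay at 2887 to 8330 CPM against 10240 to 11454 CPM.

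Per transcript length, members differed widely in the saline libraries (median of 24, as TPM, which scales a count by transcript length and depth). Scd2, a desaturase that makes monounsaturated fatty acids, was highest at 549 TPM. Fads1 (140 TPM) and Fads2 (85.6 TPM), the desaturases of polyunsaturated fatty acids, came next among the fatty acid genes, and Hmgcs1, which condenses acetyl units early in the mevalonate pathway, led the sterol synthesis genes at 101 TPM. Cyp46a1 stood at 82.8 TPM. The other sterol synthesis genes lay between 3.87 TPM (Mvk) and 38.9 TPM (Sc5d). Nr1h3, the liver X receptor alpha, was low at 2.32 TPM, and Ch25h, which makes an oxysterol from cholesterol, was lowest at 0.544 TPM. In the annotation, Scd2, Srebf1, Tm7sf2 and Nr1h3 share exon bases with another gene on the same strand, and reads of Acat2 may be split with its close copy Acat3.

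The DNA before the transcription start is shown for Ch25h, Srebf1 and Abca1, which were among the 4 members with the lowest p values in the EZ on day 3 or 7, and for Hmgcs1 and Fdft1 as sterol synthesis genes, which were picked after their motifs had been seen. Each sequence is the 250 bases before the start of the canonical transcript (GRCm39, Gencode M39), written 5′ to 3′ on the strand of the gene. Capitals mark matches on either strand to the sterol regulatory element core TCACNCCAC, the CCAAT box (CCAAT) or the GC box (GGGCGG), of which no motif contains another.
Ch25h (chr19:34452565-34452814, minus strand): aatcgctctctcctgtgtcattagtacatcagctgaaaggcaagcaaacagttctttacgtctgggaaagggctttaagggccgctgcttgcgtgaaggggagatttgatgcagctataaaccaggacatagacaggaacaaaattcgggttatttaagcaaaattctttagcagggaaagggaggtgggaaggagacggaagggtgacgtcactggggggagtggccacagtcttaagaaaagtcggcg
Srebf1 (chr11:60111469-60111718, minus strand): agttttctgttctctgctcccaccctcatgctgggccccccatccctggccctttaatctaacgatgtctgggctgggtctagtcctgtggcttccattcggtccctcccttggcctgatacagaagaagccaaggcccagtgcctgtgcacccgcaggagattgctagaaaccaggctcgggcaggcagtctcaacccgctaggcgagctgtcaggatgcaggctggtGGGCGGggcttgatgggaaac
Abca1 (chr4:53159901-53160150, minus strand): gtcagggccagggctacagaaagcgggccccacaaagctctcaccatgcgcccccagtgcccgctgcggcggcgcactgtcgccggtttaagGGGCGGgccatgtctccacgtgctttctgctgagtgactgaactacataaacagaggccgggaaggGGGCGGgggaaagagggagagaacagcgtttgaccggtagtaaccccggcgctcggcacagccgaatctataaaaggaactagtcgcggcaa
Hmgcs1 (chr13:120151732-120151981, plus strand): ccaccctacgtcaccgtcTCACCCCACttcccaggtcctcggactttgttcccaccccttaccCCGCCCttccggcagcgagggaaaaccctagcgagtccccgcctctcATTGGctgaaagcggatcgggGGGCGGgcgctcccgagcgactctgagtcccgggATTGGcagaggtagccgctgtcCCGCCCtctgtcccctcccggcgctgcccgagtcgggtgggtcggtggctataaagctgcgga
Fdft1 (chr14:63415443-63415692, minus strand): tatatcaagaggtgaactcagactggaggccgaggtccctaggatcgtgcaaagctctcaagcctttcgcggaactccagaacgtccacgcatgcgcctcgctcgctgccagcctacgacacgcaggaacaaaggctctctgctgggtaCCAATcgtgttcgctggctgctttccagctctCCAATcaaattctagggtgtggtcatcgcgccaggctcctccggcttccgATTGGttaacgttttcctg
Of 15531 tested protein-coding genes, 1.07% held the sterol regulatory element core in this window, 35.6% the CCAAT box and 46.4% the GC box. The core was found in 3 of the 36 members, Hmgcs1, Fasn and Acaca. The CCAAT box was found in 13 of 18 sterol synthesis genes and in 3 of 6 genes of export and oxysterol formation. The window of Ch25h held none of the 3 motifs, while Srebf1 held 1 GC box and Abca1 held 2. A match describes the letters and is no evidence of binding.

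Few members were DEG, and those that were stood in the sensing, export and elongation groups. In the EZ at day 3, 5 of 36 members (13.9%) were DEG, against 24.7% of all genes tested. Srebf1, Abca1, Ch25h and Nr1h3 were upregulated, 4 of 36 against 16.1% of all genes, and Cyp46a1 was downregulated, 1 of 36 against 8.61%. In the EZ at day 7, 5 of 36 were DEG against 32.5% of all genes, and all were upregulated (20.6% of all genes), namely Srebf1, Elovl5, Abca1, Ch25h and Nr1h2. This count was 9 without mouse 23, and 8 without mouse 26 or with scaling by total count alone. At day 14 in the EZ, Ch25h was the 1 member called, against 2.36% of all genes. In the PIZ, Srebf1 and Abca1 were upregulated at day 3, 2 of 36 against 8.69% of all genes. No member was called in the PIZ at day 7, where 0.201% of all genes were, or at day 14, where 0.0140% were. At an unadjusted p under 0.05 these last counts were 4 members against 14.5% of all genes and 3 members against 5.97%. Without the fold limit, 8 members passed an adjusted p of 0.01 in the EZ at day 3 (35.2% of all genes), 11 at day 7 (45.6%) and 4 in the PIZ at day 3 (12.3%). Across the 6 comparisons 7 members were DEG at least once, and 21 did not pass an adjusted p of 0.01 in any, at any fold. The median log2 fold change of the 36 members was 0.01 in the EZ at day 3 and 0.22 at day 7, and that of all genes was 0.03 and 0.01.

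**Figure D1:**
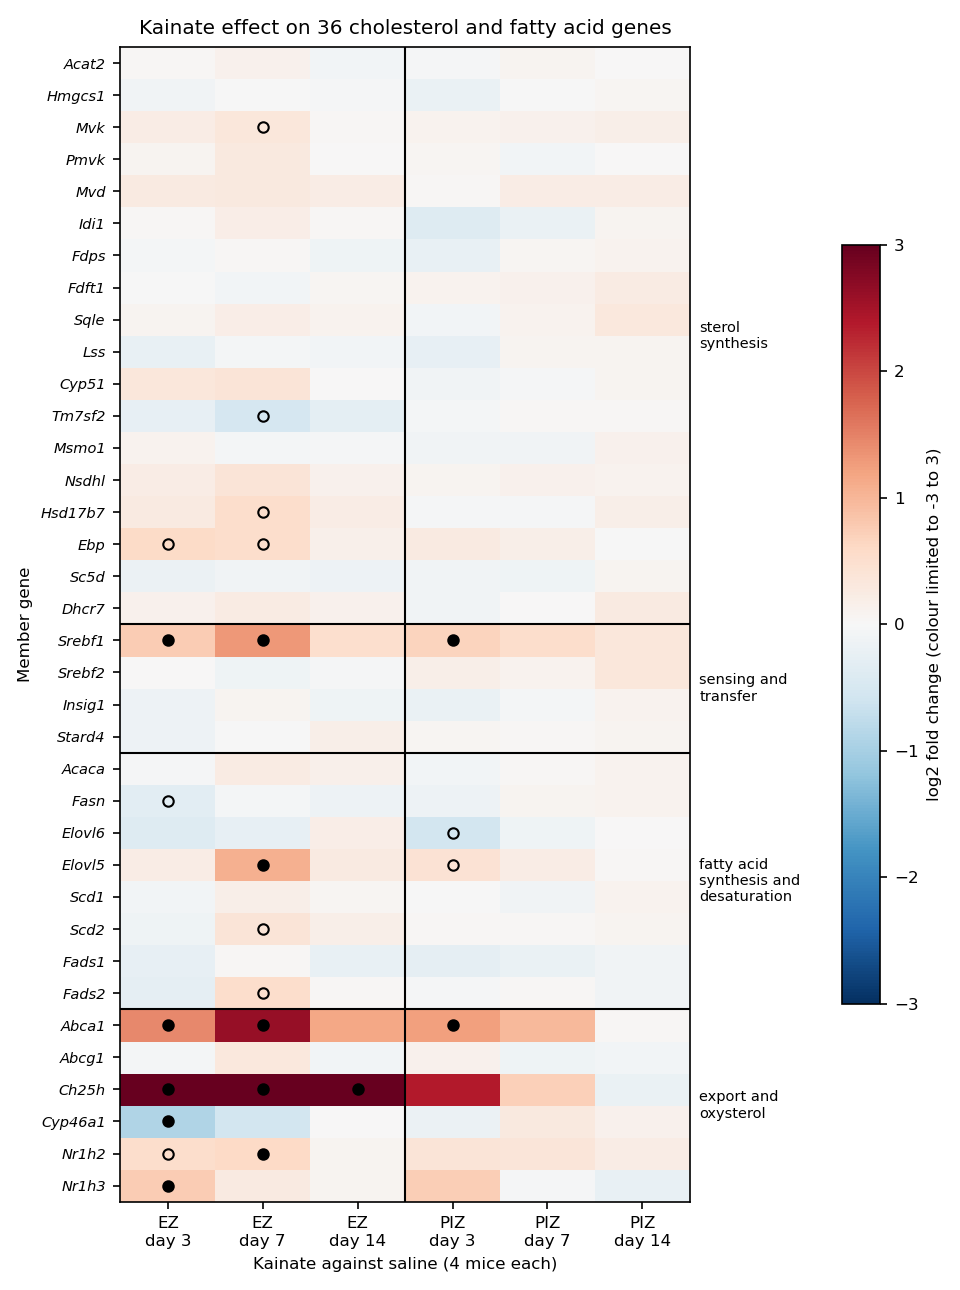
Log2 fold change of each of the 36 members (rows, by group) for kainate against saline in the EZ and PIZ at days 3, 7 and 14 (columns, 4 mice against 4). Filled circles mark DEG and open circles an adjusted p under 0.01 at a smaller fold, and the colour is limited to -3 to 3. Most filled circles lie on Srebf1, Abca1 and Ch25h, and the sterol synthesis rows hold open circles only.

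None of the 18 sterol synthesis genes was a DEG in any of the 6 comparisons, and their largest absolute log2 fold change was 0.57. Their median was 0.09 in the EZ at day 3 and 0.19 at day 7, and their values ran from -0.24 to 0.57 and from -0.51 to 0.53 on these days, from -0.28 to 0.22 at day 14 and from -0.39 to 0.26 in the PIZ at day 3. Beside the genes described below these were Acat2, Pmvk, Mvd, Fdps, Fdft1, Lss, Cyp51, Msmo1, Nsdhl, Sc5d and Dhcr7, none of which passed an adjusted p of 0.01. Without the fold limit 4 of them passed an adjusted p of 0.01. When libraries were scaled by total count alone, Ebp passed the fold limit in the EZ at days 3 and 7 and Hsd17b7 at day 7. Ebp, an isomerase late in the pathway, stood at 9.80, 13.01, 13.3 and 13.6 CPM after saline and 15.2, 16.1, 20.02 and 22.2 CPM after kainate in the EZ at day 3. The groups did not overlap, and the log2 fold change was 0.57 ± 0.13 (adjusted p = 0.00056). At day 7 Ebp again rose, by 0.53 ± 0.13 on the log2 scale (adjusted p = 0.00085).

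The other 3 passed in the EZ at day 7. Hsd17b7, a late reductase, rose by 0.52 ± 0.16 on the log2 scale (adjusted p = 0.0045), from 16.4, 17.1, 17.7 and 17.7 CPM to 18.8, 20.9, 27.4 and 31.8 CPM. Mvk, the mevalonate kinase, rose by 0.34 ± 0.10 (adjusted p = 0.0046), from 10.8, 11.4, 11.7 and 13.1 CPM to 13.03, 14.6, 15.4 and 16.6 CPM. Tm7sf2, a sterol reductase, fell by 0.51 ± 0.12 on the log2 scale (adjusted p = 0.00049), from 16.9, 19.8, 20.2 and 23.2 CPM to 11.6, 11.95, 15.3 and 17.2 CPM. The highest kainate library of Tm7sf2 was just above its lowest saline library. Leaving out mouse 23 or 26 took Ebp and Hsd17b7 past the fold limit at day 7, and leaving out mouse 23 or 89 did so for Tm7sf2. Among the genes that did not pass at day 7, the values were -0.02 ± 0.21 for Hmgcs1, 0.19 ± 0.23 for Idi1 and 0.19 ± 0.19 for Sqle, the squalene epoxidase. The highest of them were 0.40 ± 0.16 for Nsdhl (adjusted p = 0.030) and 0.39 ± 0.19 for Cyp51 (adjusted p = 0.069), which take methyl groups off lanosterol, and 0.29 ± 0.18 for Mvd and 0.28 ± 0.12 for Pmvk, which act on mevalonate phosphates. The 95% interval of the log2 fold change lay wholly within a 1.5-fold change in either direction for 14 of the 18 genes in the EZ at day 3, for 11 at day 7 and for 18 at day 14, and in the PIZ for 16, 16 and 15. For the remaining genes these data do not bound the change to that size. Kainate and saline libraries did not overlap for 1 of the 18 in the EZ at day 3 (42.4% of all genes), for 6 at day 7 (43.8%) and for 0 at day 14 (8.00%). The 6 at day 7 were Pmvk, Mvd, Nsdhl, Hsd17b7, Ebp and Dhcr7, all higher after kainate. In the PIZ the counts were 3 at day 3 (30.7% of all genes), 0 at day 7 (12.9%) and 1 at day 14 (7.18%), and the 3 were Idi1, Fdps and Lss, all lower after kainate.

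**Figure D2:**
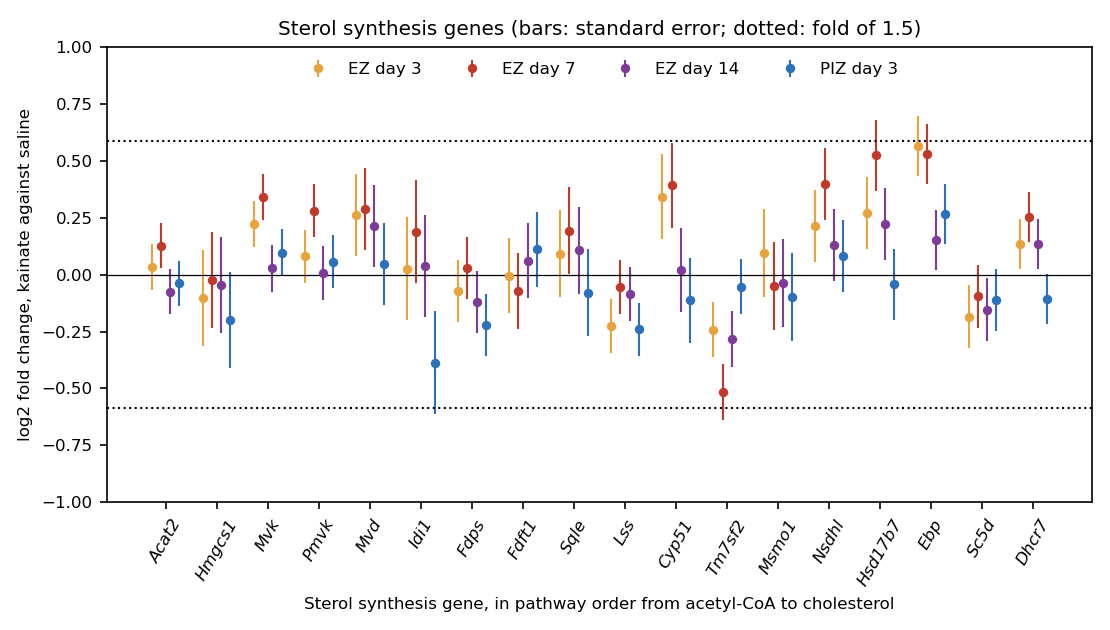
Log2 fold change (points) with its standard error (bars) of the 18 sterol synthesis genes in pathway order, kainate against saline, in the EZ at days 3, 7 and 14 and the PIZ at day 3, 4 mice against 4. All points lie inside the dotted lines at a fold of 1.5, with Ebp, Hsd17b7 and Tm7sf2 nearest to them.

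In most groups, many sterol synthesis genes were high or low in the same mouse. Among the 4 kainate EZ libraries of day 3, mouse 30 was highest for 15 of the 18 genes and mouse 44 lowest for 13. For Hmgcs1 these 4 libraries lay at 81.2, 118, 133 and 197 CPM, around the saline values of 129, 132, 138 and 169 CPM. For Idi1, the isopentenyl diphosphate isomerase, they lay at 10.2, 18.7, 21.9 and 32.7 CPM around saline values of 19.2, 20.1, 21.1 and 21.6 CPM. At day 7 in the EZ, mouse 21 was lowest for 15 genes and mouse 23 highest for 11. On the other side of the brain, mouse 23 was again highest for 14 genes, and mouse 35 was lowest for 16. At day 14, mouse 40 was lowest for 14 genes in the EZ and for 11 in the PIZ. In the saline EZ, mouse 18 was highest for 13 genes at day 3 and mouse 24 for 14 at day 14. At day 7 the saline EZ had no such order, and no mouse there was highest for more than 7 genes or lowest for more than 8. Among the kainate PIZ libraries of day 3, mouse 42 was lowest for 15 genes and no mouse was highest for more than 7. The spread was larger after kainate in the EZ at day 3, where the highest library exceeded the lowest by 1.61-fold (median of the 18 genes) against 1.21-fold after saline, and 17 of 18 genes had the wider range after kainate. Of all genes, 71.6% had the wider range after kainate there. At days 7 and 14 in the EZ the counts were 16 and 15 of 18, against 78.0% and 82.5% of all genes. On the PIZ side they were 10 at day 3 (44.2% of all genes), 18 at day 7 (63.3%) and 6 at day 14 (44.3%). These orders were noticed in the values and were not tested. The orders by mouse were not counted over all genes, so they are not shown to be particular to sterol synthesis.

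**Figure D3:**
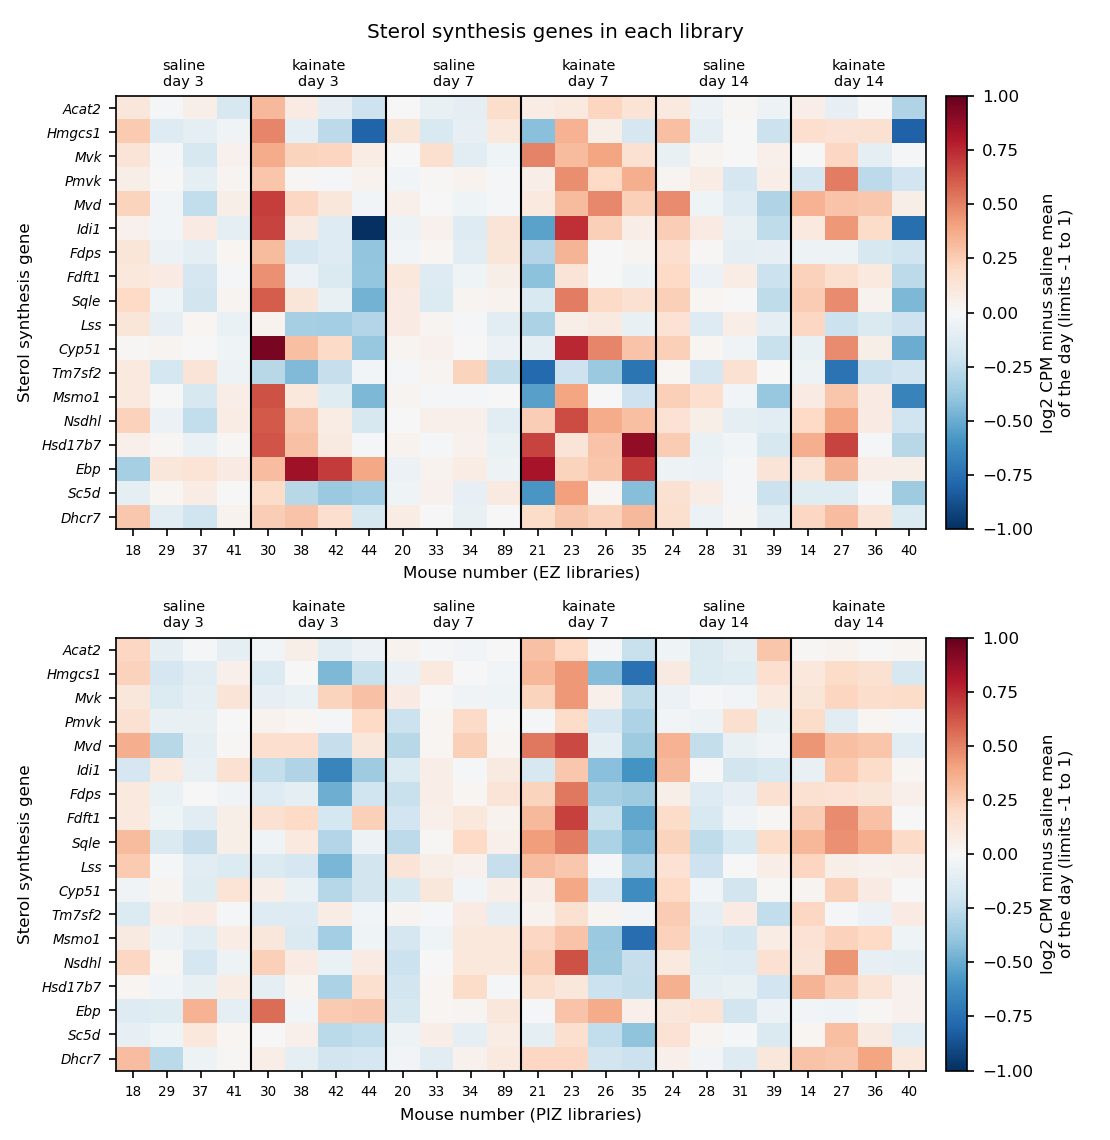
Log2 CPM of the 18 sterol synthesis genes (rows) in each EZ library (upper panel) and PIZ library (lower panel), minus the mean of the saline libraries of the same region and day. Columns are mice, 4 in each group, and the colour is limited to -1 to 1. Whole columns run high or low, such as mice 30 and 44 in the EZ at day 3 and mice 23 and 35 in the PIZ at day 7.

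Among the sensing genes, Srebf1 (chr11:60089913-60113407, GRCm39), whose SREBP protein acts mainly on fatty acid genes, was higher after kainate in both regions. Its EZ libraries of day 3 stood at 35.6, 36.8, 36.95 and 40.7 CPM after saline and at 60.3, 63.0, 64.5 and 65.6 CPM after kainate. The groups were tight and far apart, and the log2 fold change was 0.76 ± 0.15 (adjusted p = 6.7e-05). At day 7 the kainate libraries spread to 73.5, 74.4, 104 and 146 CPM against 36.9, 39.1, 42.3 and 43.1 CPM, a log2 fold change of 1.30 ± 0.15 (adjusted p = 2.4e-08). By day 14 they lay at 45.2, 49.8, 50.3 and 78.4 CPM against 33.6, 40.4, 41.1 and 42.5 CPM. These groups did not overlap, but 1 mouse stood far above the other 3 and the difference of 0.50 ± 0.15 was not called (adjusted p = 0.033), but it was when kainate mouse 36 was left out. On the opposite side at day 3, Srebf1 rose by 0.68 ± 0.15 on the log2 scale (adjusted p = 0.00087), from 29.4, 30.3, 30.6 and 38.2 CPM to 47.8, 51.7, 52.5 and 53.5 CPM. The PIZ values at day 7 (0.52 ± 0.15, adjusted p = 0.061) and day 14 (0.35 ± 0.15) were not called, although kainate and saline libraries did not overlap on either day.

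The other 3 sensing genes were not called in any comparison. Srebf2, whose SREBP protein drives sterol synthesis, had log2 fold changes from -0.12 to 0.33. At the largest of these, in the PIZ at day 14, its kainate libraries lay at 197, 200, 202 and 246 CPM, above the saline range of 159 to 175 CPM (adjusted p = 0.60). Insig1, which retains SREBP factors, lay between -0.20 and 0.11, and Stard4, a cytosolic sterol carrier, between -0.16 and 0.18. Like the synthesis genes, Insig1 ran from 23.8 CPM in mouse 44 to 38.7 CPM in mouse 30 in the EZ at day 3 after kainate.

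Of the 8 fatty acid genes, 1 was called in any of the 6 comparisons of kainate with saline, Elovl5 in the EZ at day 7, where 3 of 8 passed an adjusted p of 0.01 without the fold limit, against 45.6% of all genes. Elovl5 (chr9:77818113-77891802), which lengthens polyunsaturated fatty acids, stood there at 57.7, 58.7, 59.9 and 62.1 CPM after saline and at 110, 118, 133 and 139 CPM after kainate. Every kainate library was well above every saline library, with a log2 fold change of 1.07 ± 0.11 (adjusted p = 1.7e-08). At day 3 in the EZ the libraries overlapped, at 75.7 to 97.2 CPM after kainate and 65.9 to 81.5 CPM after saline (0.22 ± 0.11, adjusted p = 0.11). In the PIZ at day 3 the kainate libraries lay at 67.6, 74.1, 83.7 and 103 CPM against 52.0, 61.2, 64.9 and 65.2 CPM, a rise of 0.43 ± 0.11 on the log2 scale that passed the adjusted p (0.0053) but not the fold.

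Fads2 (chr19:10038130-10079203), the first desaturase of the polyunsaturated pathway, gave values of opposite sign on successive days in the EZ. At day 3 the kainate libraries lay at 143, 145, 150 and 150 CPM, below the saline libraries at 171, 172, 177 and 185 CPM (-0.26 ± 0.09, adjusted p = 0.013). At day 7 they lay at 192, 211, 224 and 236 CPM, above the saline libraries at 137, 144, 157 and 161 CPM, and the rise of 0.53 ± 0.09 had an adjusted p of 4.1e-06 at a fold below 1.5. The groups did not overlap on either day. The same gene lay in the PIZ between -0.10 and 0.04.

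Of the remaining fatty acid genes, 3 passed an adjusted p of 0.01 without reaching the fold limit. Scd2 rose by 0.38 ± 0.10 on the log2 scale in the EZ at day 7 (adjusted p = 0.0015), from 1147, 1183, 1195 and 1335 CPM to 1441, 1548, 1586 and 1748 CPM. Fasn, the fatty acid synthase, fell by 0.32 ± 0.07 on the log2 scale in the EZ at day 3 (adjusted p = 0.00044), with 1 of 4 kainate libraries inside the saline range. Elovl6, an elongase of saturated fatty acids, fell by 0.56 ± 0.15 on the log2 scale in the PIZ at day 3 (adjusted p = 0.0076), from 58.8, 59.2, 62.5 and 72.0 CPM to 35.01, 42.7, 45.8 and 47.8 CPM. Fads1 of day 3 lay at -0.25 ± 0.09 (EZ) and -0.26 ± 0.09 (PIZ) (adjusted p = 0.020 and 0.027), and its kainate libraries were below all saline libraries on both sides. They were also below all saline libraries in the PIZ at day 7, at 185 to 208 CPM against 221 to 235 CPM. The same held in the EZ at day 14, at 172 to 216 CPM against 224 to 248 CPM. In these 2 comparisons 12.9% and 8.00% of all genes did not overlap, and Fads1 did not pass an adjusted p of 0.01. Acaca, the acetyl-CoA carboxylase, was at 0.25 ± 0.09 in the EZ at day 7 (adjusted p = 0.012), and Scd1 lay between -0.11 and 0.18.

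**Figure D4:**
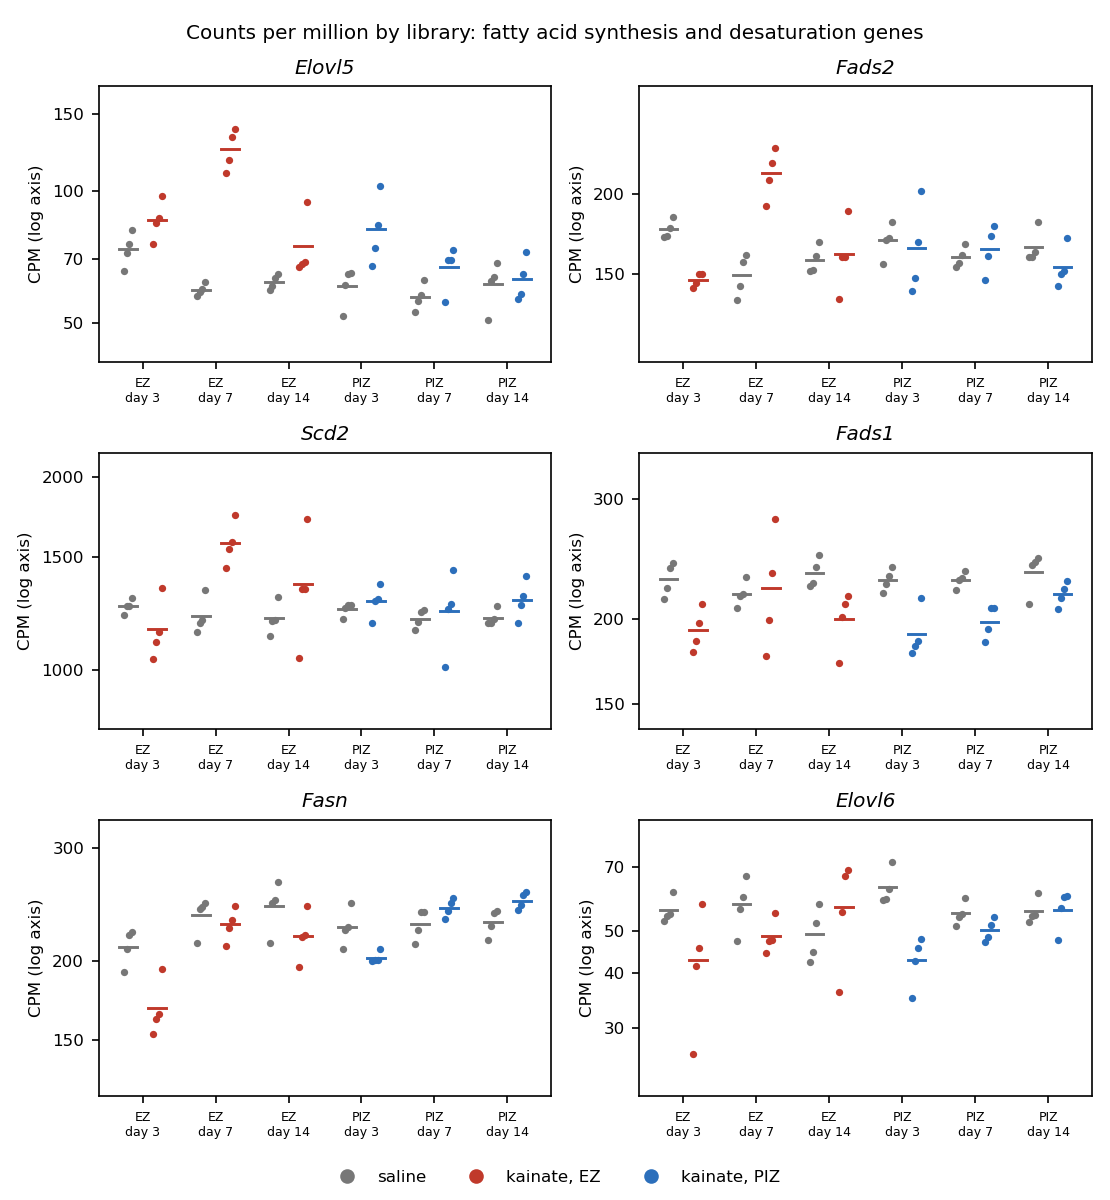
CPM (log axis) of 6 fatty acid genes in each library (points) with the group mean (lines), for the EZ and PIZ at days 3, 7 and 14, 4 mice in each group. Elovl5 and Fads2 rise clear of saline in the EZ at day 7, Fads2 lies below saline at day 3, and Fads1 lies below saline on both sides at day 3.

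Ch25h (chr19:34451178-34452564) had the largest fold changes of the members. Its EZ libraries of day 3 stood at 0.177, 0.405, 0.599 and 1.66 CPM after saline and at 8.08, 28.9, 32.8 and 45.1 CPM after kainate. At day 7 the values were 0.130, 0.153, 0.424 and 0.516 CPM against 9.79, 26.1, 36.5 and 50.6 CPM. No library overlapped on either day, with log2 fold changes of 5.35 ± 0.73 (adjusted p = 5.3e-07) and 6.65 ± 0.81 (adjusted p = 4.1e-08). The saline EZ libraries of these 2 days held only 3 to 34 counts of the gene, so the size of the fold is less certain than its direction. At day 14 the kainate libraries were split, with 0.555 and 0.674 CPM in 2 mice, 3.09 CPM in mouse 40 and 15.4 CPM in mouse 27, against 0.0492 to 0.500 CPM after saline. This comparison was called (4.48 ± 0.84, adjusted p = 0.0012), but without mouse 27 the value was 2.75 (adjusted p = 0.28), with mouse as a replicate block in limma-voom it was 3.55 (adjusted p = 0.26), and leaving out saline mouse 31 or 39 also ended the call. On the PIZ side the day 3 kainate libraries lay at 1.29, 1.77, 2.00 and 2.50 CPM, above the saline libraries at 0.173 to 0.547 CPM, and the difference of 2.39 ± 0.81 was not called (adjusted p = 0.028).

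Abca1 (chr4:53030787-53159900), the transporter that loads cholesterol onto apolipoproteins, followed a similar course at a higher level. The EZ libraries of day 3 rose from 76.2, 83.4, 85.7 and 98.2 CPM to 167, 203, 234 and 323 CPM (1.43 ± 0.32, adjusted p = 0.00039). At day 7 it stood at 58.7, 61.3, 61.4 and 65.5 CPM after saline and at 151, 212, 567 and 586 CPM after kainate (2.62 ± 0.34, adjusted p = 6.6e-08). The groups were apart on both days, and the day 7 kainate libraries formed a lower and a higher pair. At day 14, 62.4, 72.4, 83.2 and 269 CPM after kainate faced 52.1 to 56.5 CPM after saline, and the difference of 1.16 ± 0.32 was not called (adjusted p = 0.024), but it was when kainate mouse 14 or 36 was left out and in DESeq2. The PIZ libraries of day 3 rose from 51.4, 54.2, 54.6 and 54.7 CPM to 122, 124, 127 and 135 CPM (1.24 ± 0.32, adjusted p = 0.0046), with both groups tight. This call was lost when any 1 of saline mice 18, 29, 37 and 41 or kainate mice 42 and 44 was left out, with adjusted p values up to 0.018 at log2 fold changes of 1.21 to 1.25. At day 7 in the PIZ the value was 0.98 ± 0.32 (adjusted p = 0.12), and at day 14 it was 0.03 ± 0.32.

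Abcg1, a second sterol exporter, was not called on any day. At day 7 its kainate EZ libraries lay at 55.0, 70.0, 119 and 134 CPM, on both sides of the saline libraries at 70.7 to 78.7 CPM (0.32 ± 0.16, adjusted p = 0.078). The lower pair were mice 23 and 26 and the higher pair mice 35 and 21, the same split as for Abca1.

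Of the liver X receptors, Nr1h2 (the beta form) rose in the EZ at day 7 by 0.59 ± 0.12 on the log2 scale (adjusted p = 8.3e-05), from 22.1, 25.0, 25.7 and 28.2 CPM to 29.2, 34.7, 39.4 and 49.0 CPM. The groups did not overlap, and the value sat just past the fold limit, which it missed with mouse as a replicate block (0.58), without a filter on low counts (0.56) and without mouse 21 (0.45), 33 (0.53) or 35 (0.58). In a fit of only the groups compared it missed the p threshold (adjusted p = 0.018). At day 3 it rose by 0.53 ± 0.12 (adjusted p = 0.00047), below the fold limit. Nr1h3 was called in the EZ at day 3 (0.75 ± 0.23, adjusted p = 0.0077), where its kainate libraries at 4.28, 4.67, 7.54 and 8.09 CPM overlapped saline libraries at 2.96, 3.51, 3.65 and 4.47 CPM. Leaving out any 1 of mice 18, 29, 38, 41 and 42 ended that call, with adjusted p values of 0.018 to 0.051, as did dropping the filter on low counts (adjusted p = 0.015) and fitting only the groups compared (adjusted p = 0.030). The PIZ gave the same value at day 3, 0.75 ± 0.24, without being called (adjusted p = 0.021).

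Cyp46a1 (chr12:108300493-108328512) was the 1 member called as downregulated. Its EZ libraries of day 3 stood at 86.2, 94.0, 95.5 and 109 CPM after saline and at 30.7, 45.5, 47.4 and 82.7 CPM after kainate. It fell by 0.90 ± 0.20 on the log2 scale (adjusted p = 0.00032) with no overlap, although mouse 44 was close to the saline range. In a fit of only the groups compared it was -0.93 and was not called (adjusted p = 0.015). At day 7 the kainate libraries formed pairs, at 43.9 and 43.9 CPM in mice 35 and 21 and at 86.1 and 94.9 CPM in mice 23 and 26, against 91.8 to 104 CPM after saline. The difference of -0.56 ± 0.20 was not called (adjusted p = 0.015), but with mouse as a replicate block in limma-voom it was -0.65 and was called (adjusted p = 0.0045), as it was without mouse 23 (-0.70) or 26 (-0.77). At day 14 it was 0.01 ± 0.20, and in the PIZ the 3 days gave -0.17, 0.29 and 0.12. In the PIZ at day 7 its kainate libraries lay at 106 to 134 CPM, above all saline libraries at 95.3 to 103 CPM, without being called. Summed neuronal markers were lower there, at 8605 to 9979 CPM against 10751 to 11842 CPM. They were also lower in the EZ at day 14, at 5448 to 10007 CPM against 10303 to 10967 CPM. In the EZ at days 3 and 7, where Cyp46a1 gave negative values, neuronal markers were lower too. At day 3 in the EZ their sum was 3823 to 6373 CPM after kainate against 9932 to 11394 CPM after saline. Of 7 granule cell markers 3 were downregulated on each of days 3 and 7, with sums at day 3 of 312 to 645 CPM against 753 to 930 CPM. Of 6 markers of CA3 and CA1 pyramidal cells 4 were downregulated at day 3 and 5 at day 7, with sums at day 3 of 66.0 to 192 CPM against 390 to 559 CPM. The summed neuronal markers were also low in these EZ libraries of day 7, at 2956 CPM in mouse 21 and 2887 CPM in mouse 35, and the summed microglial markers were high, at 10338 CPM and 7454 CPM. Mouse 27, which stood apart at day 14 for Srebf1, Abca1 and Ch25h, had microglial markers of 4880 CPM in the EZ, the highest of that group. The part of these cells in the results was not tested.

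**Figure D5:**
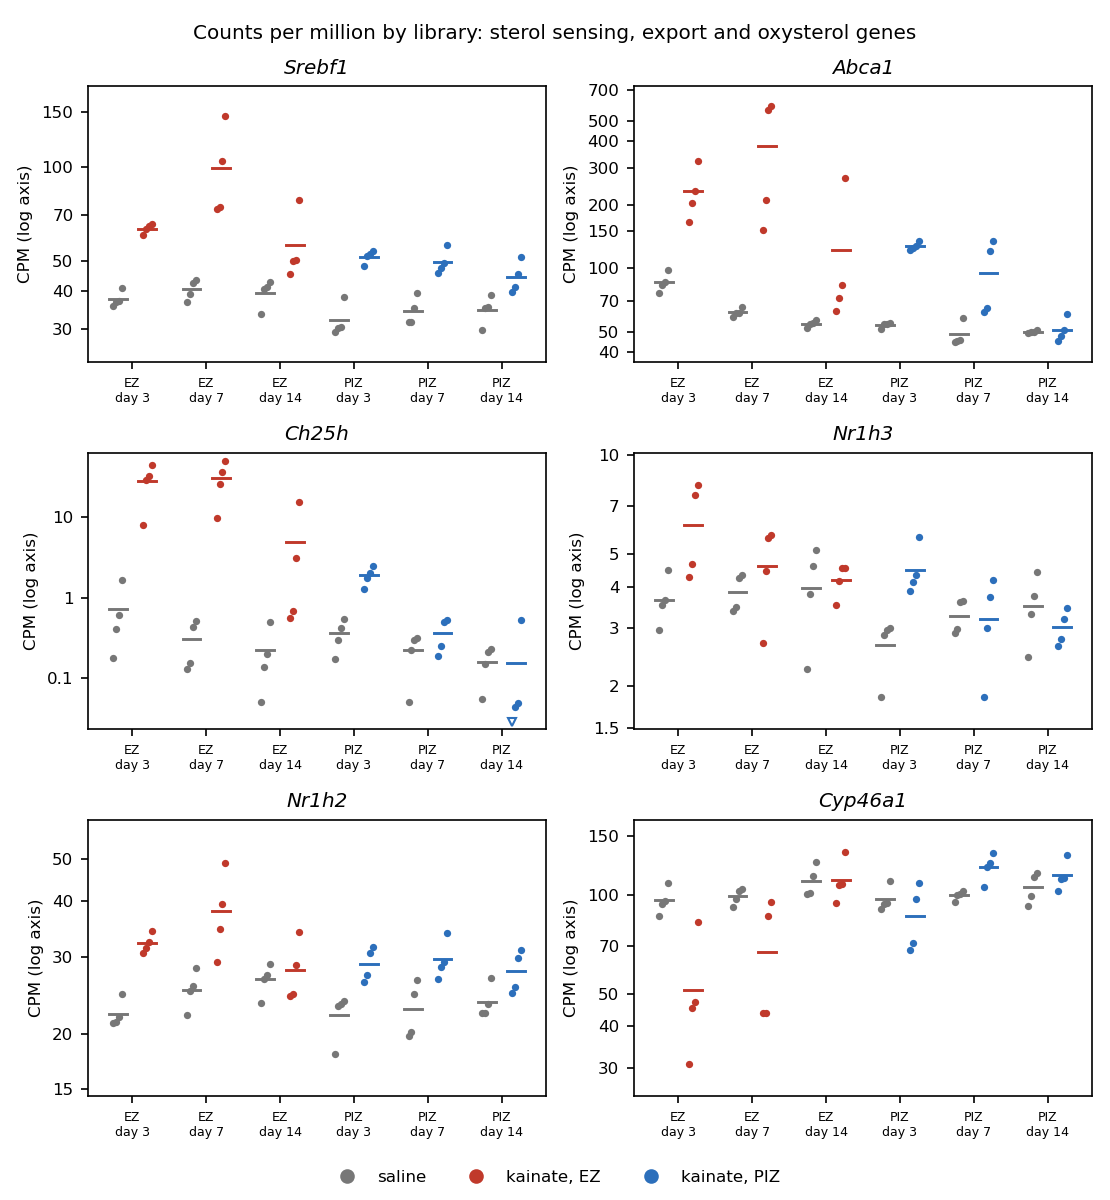
CPM (log axis) of 6 sensing, export and oxysterol genes in each library (points) with the group mean (lines), for the EZ and PIZ at days 3, 7 and 14, 4 mice in each group. The open triangle at the bottom marks the 1 library with no Ch25h count. Srebf1, Abca1 and Ch25h lie above saline in the EZ on days 3 and 7, Cyp46a1 lies below it at day 3, and 1 kainate library of day 14 stands apart for the first 3.

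The kainate effect was compared directly between regions at each day, in tests that draw on both sides of the same mice. At day 7, 4 of 36 members differed, against 9.89% of all genes, each with the higher value in the EZ (7.00% of all genes). The differences (EZ minus PIZ, log2) were 0.84 ± 0.16 for Elovl5 (adjusted p = 0.0018), 0.78 ± 0.21 for Srebf1 (adjusted p = 0.0065), 5.93 ± 1.57 for Ch25h (adjusted p = 0.0065) and 1.64 ± 0.45 for Abca1 (adjusted p = 0.0082). Fads2 differed by 0.48 ± 0.12 (adjusted p = 0.0054), below the fold limit. Without mouse 21 none of the 4 was called, and Elovl5 then stood at 0.73 (adjusted p = 0.023). When mouse 20, 33, 34, 35 or 89 was left out, Elovl5 alone was called. Cyp46a1 gave -0.85 (adjusted p = 0.023) and was called with a term for each mouse as a replicate block in edgeR (-0.93, adjusted p = 0.0043) and without mouse 26 (-1.04, adjusted p = 0.0073). In limma-voom with the replicate block Cyp46a1 was called as well and Ch25h was not (5.81, adjusted p = 0.024). At day 3 no member differed between regions, where 0.0655% of all genes did, and 2 members had an unadjusted p under 0.05, against 17.9% of all genes. For Abca1 the day 3 difference was 0.19, with a 95% interval from -0.72 to 1.10, and for Srebf1 it was 0.08, from -0.34 to 0.50. At day 14 no member was called, against 0.00% of all genes, with 4 members at an unadjusted p under 0.05, against 7.30% of all genes.

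Between days in the EZ, the kainate effect on 2 of 36 members was higher at day 7 than at day 3, against 0.145% of all genes in either direction and 0.112% in this one. These were Fads2, by 0.79 ± 0.12 on the log2 scale (adjusted p = 0.0010), and Elovl5, by 0.85 ± 0.16 (adjusted p = 0.0051). Fads2 was called whichever of the 16 mice was left out, while for Elovl5 the call was lost without mouse 20, 21, 29, 33, 34, 35, 37, 41 or 89, with adjusted p values up to 0.020 at differences of 0.80 to 0.87. Scaling by total count alone also ended the Elovl5 call (0.80, adjusted p = 0.013). Neither was called when only the groups compared were fitted, at adjusted p values of 0.012 and 0.015. The larger day 7 values of Srebf1 (0.55 ± 0.21) and Abca1 (1.19 ± 0.45) were not called (adjusted p = 0.24 and 0.25). From day 7 to day 14, the effect on Elovl5 fell by 0.80 ± 0.16 on the log2 scale (adjusted p = 0.0090), 1 of 36 members against 0.271% of all genes in either direction and 0.150% in this one. That call was kept only when kainate mouse 23, 26 or 27 was the one left out, and otherwise the difference was -0.82 to -0.74 with adjusted p values of 0.013 to 0.039. Srebf1 at -0.80 ± 0.21 and Abca1 at -1.46 ± 0.45 were not called (adjusted p = 0.017 and 0.030), but both were without mouse 23 or 27, and Srebf1 without mouse 26. In the PIZ no member differed between day 3 and day 7, where 0.0234% of all genes did, and 2 members had an unadjusted p under 0.05, against 10.6% of all genes.

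Over the 3 days no member was called between saline EZ and PIZ libraries, where 0.0234% of all genes were, in a fit that did not pair both sides of a mouse. An unadjusted p under 0.05 was found for 9 members (25.0%), against 8.92% of all genes. Within every saline mouse Abca1 was higher, and Hmgcs1 and Acat2 were lower, in the EZ than in the PIZ. This was noticed in the values and was not tested. Under TMM scaling 0 of the 18 sterol synthesis genes had a value above 0 (EZ minus PIZ), with a median log2 difference of -0.15, while 10697 of the 21390 genes tested did. The 9 members held 5 of these, Acat2 (-0.20), Dhcr7 (-0.15), Msmo1 (-0.26), Hmgcs1 (-0.25) and Sqle (-0.25), together with Stard4 (-0.26), Srebf1 (0.21), Nr1h3 (0.29) and Abca1 (0.38 ± 0.18, adjusted p = 0.55). Of the 10 microglial markers, 9 had an unadjusted p under 0.05 in the same comparison, with a median log2 difference of 0.52 over the 10, and their part in these values was not tested. At day 3 the saline libraries of Abca1 lay at 76.2 to 98.2 CPM in the EZ and 51.4 to 54.7 CPM in the PIZ, while at day 14 they lay at 52.1 to 56.5 CPM and 49.1 to 50.7 CPM.

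Other genes of these pathways were taken from 3 lists. Of 21 genes of cholesterol handling, 8 were upregulated (16.1% of all genes) and 3 downregulated (8.61%) in the EZ at day 3, and 13 were upregulated (20.6%) and 2 downregulated (11.9%) at day 7. Plin2, which coats lipid droplets, rose by 3.68 ± 0.50 at day 3 and 3.91 ± 0.52 at day 7 on the log2 scale (adjusted p = 5.4e-07 and 9.9e-08). Hsd3b7, an enzyme of bile acid synthesis and oxysterol breakdown, rose by 1.47 ± 0.22 at day 3 (adjusted p = 2.4e-06). Npc2, which carries cholesterol out of lysosomes, rose by 2.77 ± 0.32 at day 7 (adjusted p = 2.7e-08). Their median log2 fold change was 0.48 at day 3 and 0.71 at day 7.

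Of 18 further fatty acid genes, 2 were upregulated and 2 downregulated in the EZ at day 3, and 4 and 1 at day 7, read against the same shares of all genes. Acsl3, an acyl-CoA synthetase, fell by 0.80 ± 0.12 on the log2 scale at day 3 (adjusted p = 1.3e-06). Elovl1, an elongase of very long chains, rose by 1.06 ± 0.19 at day 3 and 1.24 ± 0.19 at day 7 (adjusted p = 3.1e-05 and 1.6e-06), and Slc25a1, the mitochondrial citrate carrier, rose by 0.94 ± 0.14 at day 7 (adjusted p = 7.7e-07). Of 11 further genes of sterol synthesis and uptake, 10 could be tested, none was called at day 3 and 1 was upregulated at day 7. Below the fold limit, Ggps1, the geranylgeranyl diphosphate synthase, fell by 0.42 ± 0.07 at day 3 and 0.46 ± 0.07 at day 7, and Lbr, a sterol reductase of the nuclear envelope, rose by 0.42 ± 0.09 at day 3 (adjusted p = 1.7e-05, 2.4e-06 and 0.00029). Mbtps2, a protease that releases SREBP factors, fell by 0.35 ± 0.08 on the log2 scale at day 7 (adjusted p = 0.00022).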

How the data were processed

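RNA from the EZ and PIZ dentate gyrus of 24 mice was sequenced as 48 stranded libraries. Per the submitters' processing notes and the study's methods, the authors trimmed reads with fastp 0.20.1, aligned them to GRCm39 with HISAT2 2.2.1 and made the deposited counts per gene with featureCounts (Subread 1.6.4), taking multi-mapping reads at their primary alignment, so genes with close copies, such as Acat2 and Scd1, are less certain. Values are raw read counts, with 55357 genes, and 98.9% of gene IDs matched Gencode M39, which gave symbols, transcript lengths for TPM, positions and promoters.

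Library totals of 17762656 to 25712975 limit precision mainly for genes with few counts, such as Ch25h. Genes were filtered with filterByExpr, scaled by TMM and tested in 1 fit over all 12 groups of 4 with edgeR 4.0.16 (quasi-likelihood, R 4.3.3), with contrasts for kainate against saline by region and day, for differences of that effect, and for saline EZ against PIZ. The comparisons of 1 region and day share control libraries with the differences that contain them. Calls needed an adjusted p below 0.01 and a fold above 1.5. CPM used the TMM-scaled library sizes, and standard errors and 95% intervals came from the same fit.

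Both sides of a mouse came from the same animal, so mouse numbers pair libraries across regions. Residuals of the pairs correlated at -0.05 to 0.38, with a consensus correlation of 0.16 (limma 3.58.1, duplicateCorrelation). The reported fit had no block, and mouse as a replicate block was an alternative. Other alternatives were scaling by total count alone, no filter, at least 10 counts in every library, DESeq2 1.42.0, fits of only the groups compared, other thresholds and leaving out each mouse. The reported fit was tested on simulated counts only for kainate against saline in the EZ at day 3, with each library drawn independently. The other comparisons and the alternatives were not tested in this way.

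The 36 members and all gene lists were chosen with earlier results of these data known. Members called in a comparison are given with their library values. Library values of other members that passed the adjusted p alone, and of Hmgcs1, Idi1, Abcg1, Srebf2 and Insig1, were added after they were seen, and the rest are given by ranges and counts. Other pathway genes were named if they were among the 2 lowest p values of their list in the EZ at day 3 or 7, of which 1 gene is not reported here. The promoters of 3 members were chosen by p value. All labels gave a group. Replicates are separate mice.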

Additional observations from a re-analysis of the deposited data

Results flagged for a closer look

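Among the 8 members that were called or that differed between regions or days, 11 of 96 groups of 4 libraries held 1 library far from the other 3 by Dixon's test at 95%, a test that flags about 1 in 20 groups by chance. Mouse 27 stood high in the kainate EZ of day 14 for 4 genes, with 269 CPM for Abca1, 78.4 CPM for Srebf1, 15.4 CPM for Ch25h and 94.6 CPM for Elovl5. The remaining 7 lay in the PIZ. Mouse 18 stood apart in the saline group of day 3 for Srebf1 at 38.2 CPM and for Nr1h3 at 1.86 CPM. In the same group mouse 41 was low for Abca1 at 51.4 CPM and mouse 29 stood apart for Nr1h2 at 18.1 CPM. Mouse 20 was high for Abca1 at 58.1 CPM in the saline group of day 7, mouse 39 stood apart for Fads2 at 181 CPM in the saline group of day 14, and mouse 40 was high for Ch25h at 0.525 CPM in the kainate group of day 14.

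The kainate effect differed between regions or days by a test of the difference itself (edgeR). The log2 effect was higher in the EZ than in the PIZ at day 7 by 1.64 for Abca1, 0.84 for Elovl5, 0.78 for Srebf1 and 5.93 for Ch25h. In the EZ it was higher at day 7 than at day 3 by 0.85 for Elovl5 and 0.79 for Fads2, and the day 14 minus day 7 difference was -0.80 for Elovl5.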

How the results depend on the processing

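None of the 22 gene results recomputed, each called in the reported fit or under the replicate block, changed direction under an alternative. Srebf1 and Abca1 in the EZ at days 3 and 7, Elovl5 in the EZ at day 7 and Srebf1 in the PIZ at day 3 were called in all 15 alternatives each, and Ch25h in the EZ at days 3 and 7 in all 14. Without the fold limit the counts of members called were 8 (EZ day 3), 11 (EZ day 7), 4 (PIZ day 3) and 5 (EZ minus PIZ, day 7). At an adjusted p below 0.05 they were 2 (EZ day 14), 4 (PIZ day 3), 5 (EZ minus PIZ, day 7) and 3 (EZ day 14 minus day 7). Scaling by total count alone gave 7 in the EZ at day 3 (with Ebp and Nr1h2), 8 at day 7 and 1 for day 7 minus day 3, and TMM differed from it by 0.13 on the log2 scale in the EZ at day 3. Without a filter 2 differed between regions at day 7 and 0 between days 14 and 7, and with at least 10 counts in every library, which removes Ch25h, 0 were called in the EZ at day 14. DESeq2 gave 2 in the EZ at day 14 and 2 for day 14 minus day 7. Fits of only the groups compared, with fewer samples, gave 3 (EZ day 3, without Cyp46a1 and Nr1h3), 0 (EZ day 14), 2 (EZ minus PIZ, day 7), 0 (day 7 minus day 3) and 0 (day 14 minus day 7). With mouse as a replicate block (limma-voom), the paired fit, the counts were 5 (EZ day 3), 5 (EZ day 7), 0 (EZ day 14), 2 (PIZ day 3) and 4 (EZ minus PIZ, day 7), with the exchanges of Nr1h2, Ch25h and Cyp46a1 described in the report, and no other call changed. Apart from where stated, the cause of these shifts was not tested.

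Leaving out 1 mouse gave 4 to 6 called in the EZ at day 3, 4 to 9 at day 7, 0 to 3 at day 14, and 1 to 3 in the PIZ at day 3. It gave 0 to 5 for EZ minus PIZ at day 7, 1 to 2 for day 7 minus day 3 and 0 to 4 for day 14 minus day 7. In the EZ at day 7 the counts were 9 without mouse 23 and 8 without mouse 26. Comparisons with no called member kept 0 throughout. Depth limited Ch25h, which had 34 counts or fewer in each saline EZ library.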
